A study of Mus musculus with 6 samples.

Results

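The NR4A, EGR and NFAT activation factors described here are 10 transcription factor genes, taken by gene name from a list of named genes: Nr4a1, Nr4a2, Nr4a3, Egr1, Egr2, Egr3, Nfatc1, Nfatc2, Irf4 and Myc. They are 10 of the 54532 genes with deposited counts, and all 10 were among the 15938 genes that passed the filter on low counts. The study examined ALX-5407, which blocks the glycine transporter GlyT1, in splenic CD4+ T cells of C57BL/6 males. The culture conditions were those for Th1 cells, which direct the cells toward IFN-γ production. RNA sequencing covered 3 control libraries, from cells given vehicle (0.1% DMSO), and 3 libraries from cells given 500 nM ALX-5407. The labels give 72 h for both groups, and the culture methods of the study also give harvest after 72 h. Its sequencing methods give a shorter exposure to ALX-5407. The labels describe capture of RNA on poly-T beads and the methods describe removal of ribosomal RNA. Whether replicates came from separate animals was not stated, so p-values measure only the spread between these samples.

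Engagement of the T cell receptor raises calcium inside the cell, and the phosphatase calcineurin then lets NFAT proteins enter the nucleus. The same signal, through kinases, switches on immediate early genes such as the EGR factors, and both branches feed NR4A receptors, IRF4 and MYC. NR4A and EGR factors are known for restraining as well as driving T cell responses, IRF4 follows the strength of receptor signalling, and MYC drives growth of the activated cell.

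The total counts of the control libraries were 33432304, 32518060 and 30801753. Those of the ALX-5407 libraries were 34735568, 36727788 and 34142475. Levels are given as CPM, counts divided by library size after TMM scaling, and, where genes are compared with each other, as RPKM, which also divides by gene length.

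With ALX-5407, the 3 EGR genes, Nfatc1, Nfatc2, Irf4 and Myc were higher, while Nr4a2 and Nr4a3 were lower and Nr4a1 was not called; the call of Egr3 was lost with upper-quartile scaling and in 4 of the 6 fits that left out 1 library. In the quasi-likelihood test of edgeR, with p-values adjusted by the Benjamini-Hochberg method and called under 0.05, 7 of the 10 factors were called higher (6 in the fits without a call for Egr3) and 2 were called lower. Of all genes tested, 24.5% were called higher and 23.2% lower. Of the 896 tested genes that the deposited annotation places in a transcription factor family, 27.9% were called higher and 19.8% lower. Among the 7554 genes with a mean count at or above that of the least abundant factor, Egr3, the shares were 34.7% and 27.5%. The related gene lists below are set against all genes tested, without matching for abundance. The median log2 fold change was 0.52 over the 10 factors and 0.01 over all genes tested.

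When a log2 fold change beyond 1 in either direction was also required, Egr1 was the 1 factor called higher and Nr4a2 the 1 called lower. By that stricter rule 3.36% of all genes tested were called higher and 6.68% lower. The ALX-5407 libraries lay above every control library for 7 factors and below every control library for 2, and the groups overlapped for Nr4a1. Over all genes tested, 28.4% lay wholly above and 27.1% wholly below. Of the 7554 genes at least as abundant as Egr3, 2882 lay wholly above and 2286 wholly below. In RNA from whole cultures, fewer cells that express a gene and less RNA per cell cannot be told apart.

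**Figure D1:**
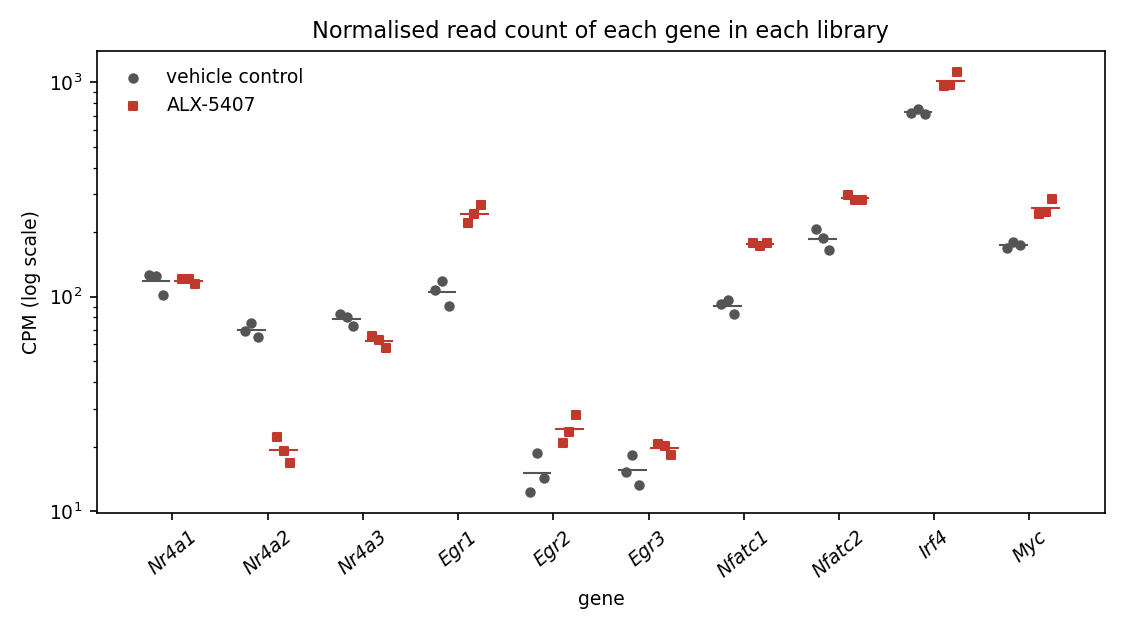
Normalised read count (CPM, log axis) of the 10 factors in the 3 control libraries (circles) and the 3 ALX-5407 libraries (squares), with a line at each group's mean. The groups are apart for 9 of the 10 genes, with Nr4a2 and Nr4a3 lower under ALX-5407, and they overlap for Nr4a1.

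**Figure D2:**
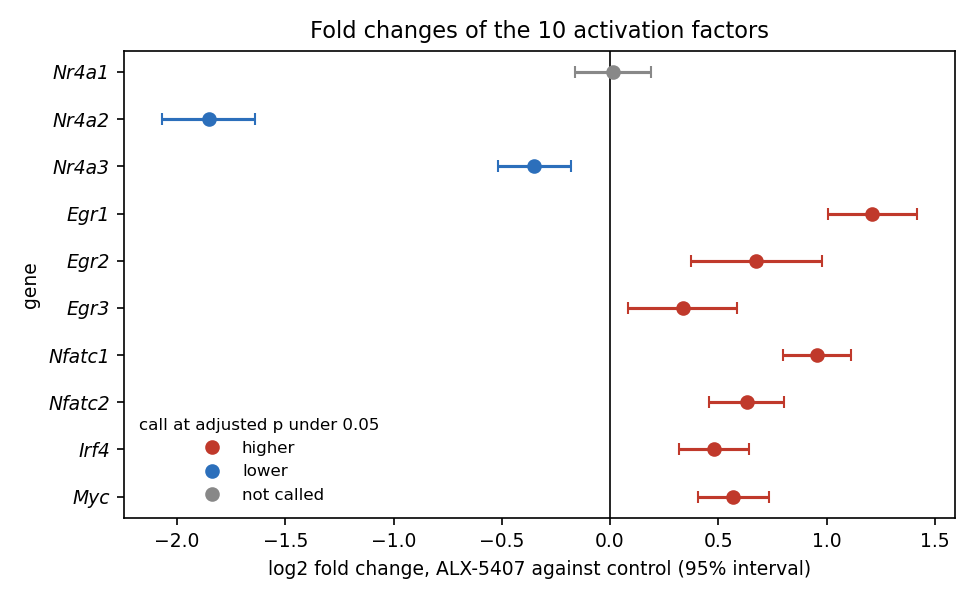
Log2 fold change of each factor, ALX-5407 against control, with its 95% interval from edgeR's quasi-likelihood fit of 3 against 3 libraries. Nr4a2 lies lowest at -1.85 and Egr1 highest at 1.21, and the interval of Nr4a1 spans 0 (its sign turned under RLE and upper-quartile scaling).

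Nfatc1 (ENSMUSG00000033016, chromosome 18) encodes an NFAT protein whose own transcription is induced when T cells are activated. Its level was 92.1, 96.7 and 83.2 CPM in the control libraries and 178, 172 and 178 CPM in the ALX-5407 libraries. All ALX-5407 libraries stood well above the highest control library, and their spread was narrow. Its log2 fold change was 0.96 (SE 0.074, 95% interval 0.80 to 1.11, adjusted p = 4.66e-08 from edgeR), a fold of 1.94.

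Nfatc2 (ENSMUSG00000027544, chr2:168476410-168601657, - strand, GRCm38) encodes the NFAT protein that resting T cells already hold. It was counted at 206, 188 and 165 CPM in the control libraries and at 298, 284 and 284 CPM with ALX-5407. The groups did not overlap, and control 3 was the lowest library. Its log2 fold change was 0.63 (SE 0.081, adjusted p = 9.49e-06 from edgeR).

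Between Nfatc1 and Nfatc2, the balance of levels moved toward Nfatc1. Nfatc1 made up 41.0% ± 1.85 (SD, n = 3) of their summed RPKM in control cells and 46.5% ± 0.675 (SD, n = 3) with ALX-5407. The log2 ratio of Nfatc2 to Nfatc1 counts was 0.32 lower with ALX-5407, which is -0.32 as a difference of group means (exact permutation test, two-sided, p = 0.1, n = 3 against 3). Such a test of 3 against 3 libraries cannot give a p below 0.1, and this was the value for each of the 5 paralog ratios tested, also after Benjamini-Hochberg adjustment over the 5.

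The other NFAT genes did not move as one. Nfatc3, which T cells also use, was higher, with 162 CPM in control and 202 CPM in ALX-5407 libraries (log2 fold change 0.32, adjusted p = 0.00197 from edgeR). Nfat5, which responds to osmotic stress and lacks calcineurin control, was lower, at 444 and 327 CPM (log2 fold change -0.44, adjusted p = 7.75e-05 from edgeR). Nfatc4 was listed at 0.319 CPM in control libraries and 0.0179 CPM with ALX-5407 and did not pass the filter.

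Among 31 tested genes of calcium and calcineurin signalling, 13 were higher (41.9%) and 3 lower (9.68%), against 24.5% and 23.2% of all genes tested, and the median log2 fold change was 0.19. With scaling by total counts alone, 20 were called higher. Under that scaling 4484 of all genes tested were called higher, against 3910 in the main fit. Ppp3ca, which encodes 1 of the 3 catalytic calcineurin subunits, went from 14.2 to 33.6 CPM (log2 fold change 1.24, SE 0.107, adjusted p = 1.46e-07 from edgeR). The other catalytic subunit genes had higher CPM and were not called, Ppp3cb at 135 and 145 CPM (adjusted p = 0.226 from edgeR) and Ppp3cc at 126 and 137 CPM (adjusted p = 0.177). Ppp3r1, a regulatory calcineurin subunit gene, went the other way, from 144 to 93.3 CPM (log2 fold change -0.63, SE 0.068, adjusted p = 1.74e-06 from edgeR). Of the IP3 receptors, which release calcium from internal stores, Itpr2 (log2 fold change 0.87) and Itpr3 (0.19, adjusted p = 0.0407 from edgeR) were higher and Itpr1 lower (-0.48). Also higher were Rcan3, a calcineurin regulator (log2 fold change 0.72), and Dyrk1a, a kinase that promotes NFAT export from the nucleus (0.47). Plcg1, the phospholipase that makes IP3 after receptor engagement, was lower (log2 fold change -0.51).

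Of 21 tested genes described as NFAT targets in T cells, 6 were higher (28.6%) and 10 lower (47.6%), against 24.5% and 23.2% of all genes tested, and the median log2 fold change was -0.52. The cytokine gene Il3 fell from 8.06 to 0.689 CPM (log2 fold change -3.54, SE 0.241, adjusted p = 1.15e-08 from edgeR). Fasl, the death ligand, fell from 18.8 to 6.38 CPM (log2 fold change -1.56), and Ifng from 660 to 382 CPM (-0.79). Tnfrsf9, a costimulatory receptor, was lower too (log2 fold change -0.69). Gzmb, a cytotoxic granule protease, rose from 809 to 1233 CPM (log2 fold change 0.61). Tnf (log2 fold change 0.61), Il2ra (0.44) and Il2 (1.10) were higher too, although Il2 was scarce, at 1.34 and 2.88 CPM.

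Egr1 (ENSMUSG00000038418, chromosome 18) encodes a zinc finger factor induced within minutes of receptor signalling through ERK kinases. Its level was 107, 118 and 90.0 CPM in the control libraries and 221, 242 and 269 CPM with ALX-5407. The lowest ALX-5407 library was well above the highest control library. Of the 10 factors it had the highest log2 fold change, 1.21 (SE 0.097, 95% interval 1.01 to 1.42, adjusted p = 6.9e-08 from edgeR), a fold of 2.32.

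Egr2 (ENSMUSG00000037868, chr10:67535475-67542188, + strand, GRCm38) encodes a related factor known for its part in T cell anergy. It had 12.3, 18.7 and 14.3 CPM in the control libraries and 20.7, 23.5 and 28.2 CPM with ALX-5407. The groups did not overlap, but control 2 came close to the lowest ALX-5407 library. Egr2 had a log2 fold change of 0.68 (SE 0.143, adjusted p = 0.000955 from edgeR).

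Egr3 (ENSMUSG00000033730, chr14:70077203-70082614, + strand, GRCm38) acts with Egr2 in restraining T cell activation. It was counted at 15.3, 18.2 and 13.2 CPM in the control libraries and at 20.6, 20.0 and 18.3 CPM with ALX-5407. The lowest ALX-5407 library barely cleared the highest control library. Its log2 fold change of 0.34 (SE 0.119, 95% interval 0.08 to 0.59) had an adjusted p of 0.0278 in edgeR's quasi-likelihood test. The call was lost without control 1 (log2 fold change 0.32, adjusted p = 0.0915 from edgeR), without control 3 (0.22, adjusted p = 0.127), without ALX-5407 1 (0.31, adjusted p = 0.0896) and without ALX-5407 2 (0.33, adjusted p = 0.0732). It was also lost with upper-quartile scaling (0.28, adjusted p = 0.0614 from edgeR), and over the 14 alternatives the adjusted p ran from 0.00777 to 0.127.

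Summed over the 3 EGR genes, RPKM was 31.4 ± 4.38 (SD, n = 3) in control cells and 65.9 ± 6.20 (SD, n = 3) with ALX-5407. Egr1 made up 74.7% ± 2.12 of that sum in control cells and 82.4% ± 0.383 with ALX-5407 (SD, n = 3 each). The share of Egr3 was 11.2% ± 0.241 in control cells and 6.83% ± 1.04 with ALX-5407 (SD, n = 3 each). As differences of group means, the log2 ratio to Egr1 changed by -0.53 for Egr2 and by -0.87 for Egr3.

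Of the EGR co-repressors, which bind EGR proteins and limit their activity, Nab1 was called higher (log2 fold change 0.21, adjusted p = 0.0216 from edgeR) and Nab2 was not called (-0.02, adjusted p = 0.903). Egr4, another family member, was near the detection limit at 0.28 and 0.231 CPM and was not called. Together, the 5 tested genes of the list of other family members and co-repressors (Nfatc3, Nfat5, Egr4, Nab1 and Nab2) had 2 called higher (40%), Nfatc3 and Nab1, and 1 called lower (20%), Nfat5, against 24.5% and 23.2% of all genes tested. The count of 2 fell to 1 with upper-quartile scaling and without control 1, control 2, ALX-5407 2 or ALX-5407 3. The count of 1 rose to 2 with no filter on low counts and without control 1, ALX-5407 1, ALX-5407 2 or ALX-5407 3.

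Of 27 other immediate early genes and their regulators, 14 were higher (51.9%) and 7 lower (25.9%), against 24.5% and 23.2% of all genes tested, and the median log2 fold change was 0.21. Klf10, a TGF-β inducible zinc finger gene, went from 3.80 to 13.2 CPM (log2 fold change 1.80, SE 0.139, adjusted p = 4.66e-08 from edgeR). Dusp5, a nuclear ERK phosphatase that ERK signalling induces, rose from 110 to 214 CPM (log2 fold change 0.96). Ier5 (log2 fold change 0.89) and Ier2 (0.68) were higher as well. Crem, which encodes activators and repressors that bind the cyclic AMP response element (CRE), fell from 270 to 92.4 CPM (log2 fold change -1.55, SE 0.085, adjusted p = 1.14e-09 from edgeR). Of the ternary complex factors, Elk3 (log2 fold change -0.45) and Elk1 (-0.49) were lower and Elk4 was higher (0.21, adjusted p = 0.0457 from edgeR). The zinc finger gene Klf6 (log2 fold change -0.35) was lower.

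The NR4A genes encode orphan nuclear receptors that receptor signalling induces and that are known for limiting T cell responses. The sequence before each RefSeq start site is shown (RefSeq, GRCm38.p6, 5′ to 3′), with the CRE core TGACG, or its reverse complement, in capitals. A link between these sequences and the changes of the NR4A genes was not tested. The stretches are chr15:101266596-101266845 on the + strand for Nr4a1, chr2:57124004-57124253 on the - strand for Nr4a2 and chr4:48045055-48045152 on the + strand for Nr4a3. None of these bases lies in an exon of its gene in GENCODE M21, and the stretch of Nr4a3 is shorter because a GENCODE exon begins there. The stretch of Nr4a1 lies between exons inside the counted gene (chr15:101254269-101274795), not before it.
Nr4a1: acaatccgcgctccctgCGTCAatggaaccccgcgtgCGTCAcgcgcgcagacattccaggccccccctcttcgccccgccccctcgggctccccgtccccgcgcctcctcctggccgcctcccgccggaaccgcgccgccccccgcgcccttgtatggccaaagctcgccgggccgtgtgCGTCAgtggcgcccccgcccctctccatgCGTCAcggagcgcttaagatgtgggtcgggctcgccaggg
Nr4a2: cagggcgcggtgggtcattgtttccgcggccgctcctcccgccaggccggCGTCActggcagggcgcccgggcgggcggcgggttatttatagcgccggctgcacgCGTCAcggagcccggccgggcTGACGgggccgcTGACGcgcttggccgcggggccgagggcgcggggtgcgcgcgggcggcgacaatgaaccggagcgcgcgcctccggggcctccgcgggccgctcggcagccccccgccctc
Nr4a3: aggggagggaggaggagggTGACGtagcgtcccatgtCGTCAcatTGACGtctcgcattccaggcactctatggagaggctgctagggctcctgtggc

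Each NR4A promoter held 4 matches to TGACG on either strand in the 300 bases from 250 before to 50 after the start site, and the 1 match of Nr4a3 that is not shown lies 147 bases before the start. Of 32851 promoter windows of this length, 20.8% held at least 1 match and 0.231% held 4 or more. The full palindromic CRE, TGACGTCA, which contains the core, was in none of the 3 windows and in 1.79% of all windows. A match is a description of letters and not evidence of binding.

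**Figure D3:**
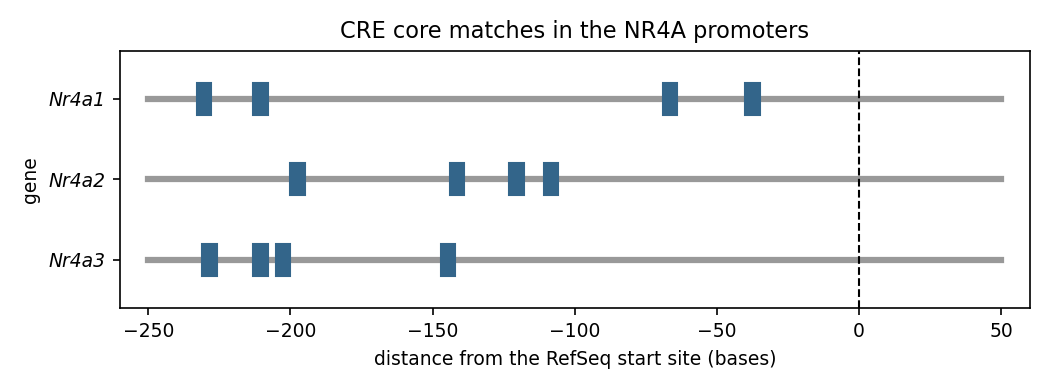
Position of each CRE core match (TGACG on either strand, blue blocks) relative to the RefSeq start site (dashed line, in bases) in the promoters of Nr4a1, Nr4a2 and Nr4a3; grey bars mark the windows searched. Each window held 4 matches, all before the start site.

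Nr4a1 (ENSMUSG00000023034, chr15:101254269-101274795, + strand, GRCm38), also called Nur77 and used as a reporter of receptor signalling, was the 1 factor not called. Its level was 126, 125 and 102 CPM in the control libraries and 121, 121 and 115 CPM with ALX-5407. The groups overlapped, and control 3 was the lowest of all libraries. The log2 fold change was 0.01 (SE 0.083, 95% interval -0.16 to 0.19, adjusted p = 0.911 from edgeR), and its sign turned with RLE and upper-quartile scaling and without control 3 (-0.10).

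Nr4a2 (ENSMUSG00000026826, chr2:57106830-57124003, - strand, GRCm38), also called Nurr1, had the lowest fold change of the 10 factors. It had 69.1, 75.5 and 64.7 CPM in the control libraries and 22.1, 19.1 and 16.7 CPM with ALX-5407. The groups were far apart. The log2 fold change was -1.85 (SE 0.101, 95% interval -2.07 to -1.64, adjusted p = 1.12e-09 from edgeR), so that control cells held 3.62 times the level of treated cells.

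Nr4a3 (ENSMUSG00000028341, chr4:48045153-48086447, + strand, GRCm38), also called Nor1, was counted at 83.4, 80.7 and 72.7 CPM in the control libraries. With ALX-5407 it had 65.3, 63.1 and 57.4 CPM. The groups did not overlap, and the third library was the lowest in each. The log2 fold change of -0.35 (SE 0.080, 95% interval -0.52 to -0.18, adjusted p = 0.00173 from edgeR) was smaller in size than that of Nr4a2.

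On the RPKM scale the summed NR4A level was 63.9 ± 5.86 (SD, n = 3) in control cells and 49.0 ± 2.21 (SD, n = 3) with ALX-5407. Nr4a2 made up 26.9% ± 1.28 of it in control cells and 9.68% ± 0.95 with ALX-5407 (SD, n = 3 each). Nr4a1 went from 52.4% ± 1.41 to 69.2% ± 1.38 (SD, n = 3 each), while Nr4a3 held 20.7% and 21.1%. The log2 ratio of Nr4a2 to Nr4a1 counts was -0.87, -0.73 and -0.66 in the control libraries and -2.45, -2.66 and -2.78 with ALX-5407. That of Nr4a3 to Nr4a1 differed by -0.37 between group means.

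**Figure D4:**
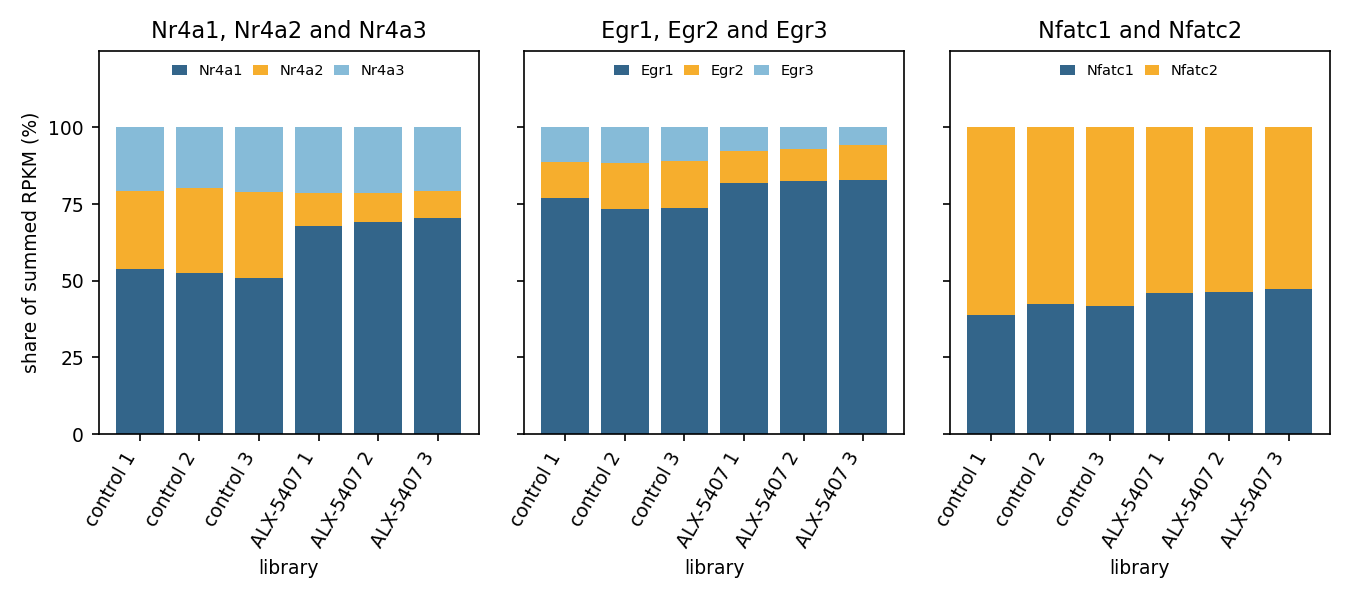
Share of each gene (%) in the RPKM summed over the 3 NR4A genes, over Egr1, Egr2 and Egr3, and over Nfatc1 and Nfatc2, in each of the 3 control and 3 ALX-5407 libraries. The share of Nr4a2 drops from a mean of 26.9% to 9.68%, and those of Egr1 and Nfatc1 rise from 74.7% to 82.4% and from 41.0% to 46.5%.

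Of 25 tested genes linked to anergy and exhaustion, the states in which NFAT, EGR and NR4A factors are best known as restraints, 6 were higher (24%) and 9 lower (36%), against 24.5% and 23.2% of all genes tested, and the median log2 fold change was -0.01. The inhibitory receptor gene Havcr2, which encodes TIM-3, rose from 6.11 to 14.7 CPM (log2 fold change 1.27, SE 0.129, adjusted p = 7.99e-07 from edgeR). The Ikaros gene Ikzf1 (log2 fold change 0.43), the anergy-linked ubiquitin ligase gene Dtx1 (0.87) and the diacylglycerol kinase gene Dgkz (0.33) were higher. Cd200, an immunoregulatory surface protein, fell from 466 to 154 CPM (log2 fold change -1.60, SE 0.087, adjusted p = 1.12e-09 from edgeR). Lower as well were Crtam, an adhesion molecule of activated T cells (log2 fold change -1.50), Cblb, a ubiquitin ligase that raises the activation threshold (-0.84), and Dgka, a second diacylglycerol kinase (-0.53).

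Irf4 (ENSMUSG00000021356, chr13:30749226-30766976, + strand, GRCm38) encodes an interferon regulatory factor that supports effector differentiation. Its level was 720, 754 and 714 CPM in the control libraries and 959, 972 and 1120 CPM with ALX-5407. The groups did not overlap, and ALX-5407 3 stood above the other libraries. For Irf4 the log2 fold change was 0.48 (SE 0.076, 95% interval 0.32 to 0.64, adjusted p = 7.43e-05 from edgeR).

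Of 17 tested genes for partners and targets of IRF4, 7 were higher (41.2%) and 7 lower (41.2%), against 24.5% and 23.2% of all genes tested, and the median log2 fold change was -0.01. Prdm1, which encodes the terminal differentiation factor Blimp-1, rose from 19.0 to 89.7 CPM (log2 fold change 2.24, SE 0.088, adjusted p = 4.47e-11 from edgeR). Maf, a factor for IL-10 production, rose from 50.1 to 123 CPM (log2 fold change 1.30), and Def6, which encodes an IRF4-binding protein, had a log2 fold change of 0.38. Tbx21, the gene of the Th1 factor T-bet, was higher by a log2 fold change of 0.34. Stat4, the transducer of IL-12, fell from 63.9 to 28.6 CPM (log2 fold change -1.16). Stat3 (log2 fold change -0.61), the AP-1 factor gene Batf, whose protein binds DNA together with IRF4 (-0.34), and Runx3 (-0.52) were lower.

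Myc (ENSMUSG00000022346, chr15:61985391-61990374, + strand, GRCm38) had 169, 180 and 175 CPM in the control libraries and 242, 248 and 287 CPM with ALX-5407. The groups did not overlap, and ALX-5407 3 was again the highest library. Myc was higher by a log2 fold change of 0.57 (SE 0.077, 95% interval 0.40 to 0.73, adjusted p = 1.62e-05 from edgeR).

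Of 24 tested genes of the MYC network, 7 were higher (29.2%) and 7 lower (29.2%), against 24.5% and 23.2% of all genes tested, and the median log2 fold change was -0.03. Among genes with a mean count at or above that of Egr3, 34.7% were higher and 27.5% lower. The count higher was 4 with upper-quartile scaling, without control 1 and without ALX-5407 3. Max, the obligate partner of MYC, fell from 139 to 99.7 CPM (log2 fold change -0.48, SE 0.084, adjusted p = 0.000185 from edgeR). Of the MAX-binding antagonists, Mxd3 was higher (log2 fold change 1.70) and Mxd4 (-0.63) and Mxd1 (-0.40) were lower. The kinase genes Aurka (log2 fold change 0.95) and Pim1 (0.76) were higher and Pim2 was lower (-0.49). Mlxip, which encodes a glucose-sensing relative of MYC, was higher (log2 fold change 0.26).

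Of 43 tested genes described as MYC targets, 20 were higher (46.5%) and 4 lower (9.3%), against 24.5% and 23.2% of all genes tested, and the median log2 fold change was 0.16. Without control 3, 7 were called lower. Slc7a5, a subunit of the large neutral amino acid transporter, rose from 270 to 895 CPM (log2 fold change 1.73, SE 0.082, adjusted p = 2.34e-10 from edgeR). Slc1a5, a glutamine transporter (log2 fold change 0.87), Shmt2, the mitochondrial serine hydroxymethyltransferase (0.84), and Cad, the enzyme that starts pyrimidine synthesis (0.82), were higher. The 4 lower genes were Npm1, a nucleolar protein (log2 fold change -0.78), the mitochondrial chaperonin gene Hspe1 (-0.54), Odc1, of polyamine synthesis (-0.30), and Ldha, lactate dehydrogenase (-0.22).

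Of 13 tested surface proteins of activated T cells, 4 were higher and 6 lower, against 24.5% and 23.2% of all genes tested, and the median log2 fold change was -0.08. Without ALX-5407 2, 2 were called higher. The 4 higher genes were Cd28 (log2 fold change 0.52) and Il2ra (0.44), which encode a costimulatory receptor and the IL-2 receptor α chain, and Cd5 (0.24) and Cd69 (0.27). For Cd69 the groups overlapped (adjusted p = 0.0412 from edgeR). Protein is a different measure: by flow cytometry the study reported lower fluorescence of CD69 and of CD25, the product of Il2ra, with ALX-5407. Of the lower genes, Cd200 and Tnfrsf9 are given above, Tnfrsf18 had a log2 fold change of -0.59 and Cd40lg, the CD40 ligand, one of -0.61.

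**Figure D5:**
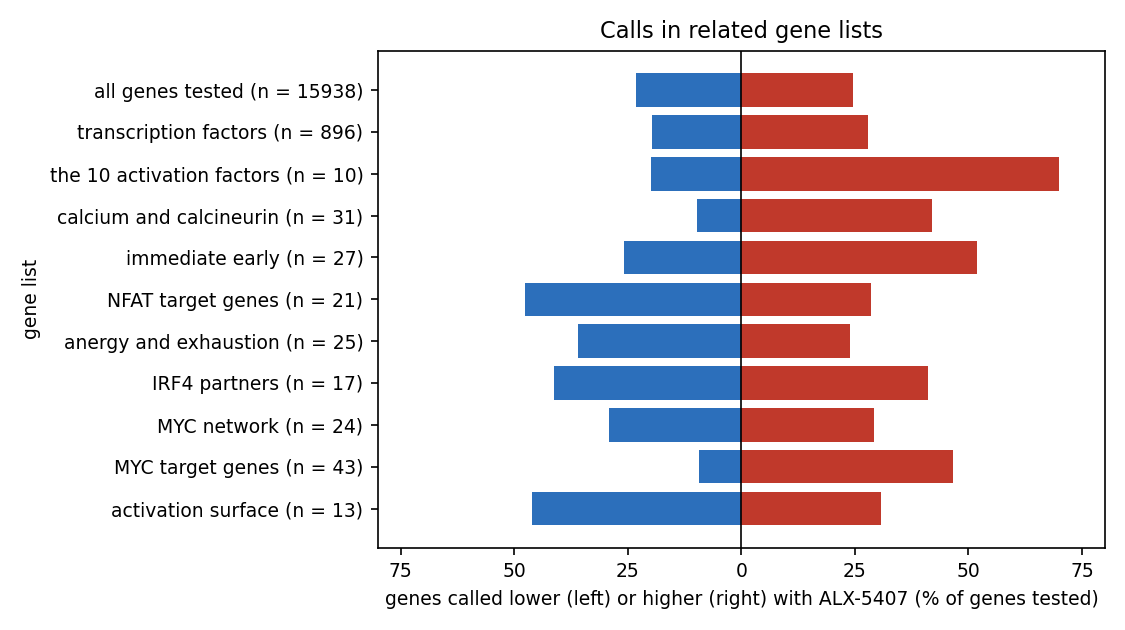
Share of tested genes called lower (blue, left) and higher (red, right) with ALX-5407 in the related gene lists, the 10 factors, transcription factors and all genes (%, edgeR, adjusted p under 0.05). The lists are not separate observations, since some genes, such as Il2ra, Tnfrsf9 and Cd200, are in several of them. Of the NFAT target genes, 10 of 21 were lower and 6 higher, while 20 of 43 MYC target genes were higher and 4 lower.

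Compared per length, the order of RPKM levels in control cells was Irf4 (149), Myc (64.2), Nr4a1 (33.6), Egr1 (23.5), Nfatc2 (17.6), Nr4a2 (17.2), Nr4a3 (13.2), Nfatc1 (12.2), Egr2 (4.44) and Egr3 (3.53), each a mean of 3 libraries. The libraries of neighbours in this order overlapped for Nfatc2 and Nr4a2, for Nr4a3 and Nfatc1, and for Egr2 and Egr3. With ALX-5407 the mean RPKM levels were 207 for Irf4, 95.3 for Myc, 54.4 for Egr1, 33.9 for Nr4a1, 27.3 for Nfatc2, 23.7 for Nfatc1, 10.3 for Nr4a3, 7.10 for Egr2, 4.75 for Nr4a2 and 4.46 for Egr3. Egr1 then stood above Nr4a1, and Nr4a2 stood next to last, overlapping Egr3.

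Within groups, 1 library was often the lowest for several factors. Control 3 had the lowest CPM of its group for 8 of the 10 factors, all but Egr2 and Myc. Among the ALX-5407 libraries, replicate 3 was lowest for all 3 NR4A genes, Egr3 and Nfatc2 and highest for the other 5 factors. Control 3 also differed most from the rest of its group in counts over all genes, with a chi-square per degree of freedom of 16.7 against control 1 and 20.2 against control 2, compared with 9.68 between those libraries.

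For 5 of the factors, the genes with the most similar profile over the 6 libraries were found by the smallest root mean square difference of centred log2 CPM, among 12116 other genes with a mean of at least 50 counts. Near to Nr4a2 were Twist1 (a difference of 0.07) and Gja1 (0.08). Nearest to Egr1 were Mboat1 (0.05), Riox1 (0.07) and Dusp7 (0.08). For Nfatc1 they were St8sia1 (0.02), Wars (0.03) and Adgrl1 (0.05). For Irf4 they were Usf3 (0.01), Baz1a (0.02) and March6 (0.02), whose symbol was read from its identifier because its deposited name had become a date. For Myc they were Fam126a, Abhd13 and Champ1 (0.03 each).

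RefSeq promoter windows of 300 bases were found for 6 of the 10 factors, 11 windows in all, and were searched on both strands. Beside the NR4A genes, Egr2 held the CRE core, in 3 of its 5 windows, which overlap. The NFAT core GGAAA was in 8 of the 11 windows, those of Nr4a2, Nfatc2, Irf4 and 4 of Egr2, and in 61.3% of all windows. The E-box CACGTG was in 1 window of Egr2 and in 7.15% of all windows, and the CArG box was in 4 windows of Egr2 and in 1.63% of all windows. The 3 overlapping windows of Egr2 shared the same CArG box and the same NFAT core match, so these windows are not separate sites. No window of these genes held the AP-1 motif TGANTCA (7.81% of all windows), the EGR motif GCGTGGGCG (0.612%) or the NR4A motif AAAGGTCA (1.51%).

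No exon of another gene overlapped an exon of any of the 10 factors in GENCODE M21. The nearest tested gene on each side of each factor was examined after values had been seen. Of these 20 neighbours, 6 were higher (30%) and 5 lower (25%), near the 24.5% and 23.2% of all genes tested. The call was that of the factor beside it for 7 neighbours and the opposite for 4, which were Bin3 beside Egr3, Atp9a beside Nfatc2, and Dusp22 and Gm29675 beside Irf4. Ado, 2323 bases from Egr2, rose from 17.6 to 32.9 CPM (log2 fold change 0.90, adjusted p = 3.46e-06 from edgeR). Pvt1, the long non-coding RNA gene beside Myc, was not called (log2 fold change -0.26, adjusted p = 0.0762 from edgeR).

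Markers of the cells were measured beside these results. All 11 T cell markers passed the filter on low counts, with summed levels of 3563, 3594 and 3519 CPM in control and 3338, 3337 and 3282 CPM in ALX-5407 libraries. Of these, 6 (54.5%) were called lower (Cd4, Zap70, Cd3g, Cd3d, Trbc2 and Trbc1) and 1 (9.09%) higher (Cd28), against 23.2% and 24.5% over all genes, with a median log2 fold change of -0.23. Cd4 was the most abundant in control (646 CPM, and 470 CPM with ALX-5407) and Cd28 with ALX-5407 (535 CPM in control and 766.5 CPM with ALX-5407). The 7 Th1 markers summed to 1384, 1452 and 1601 CPM in control and 1132, 1095 and 1108 CPM in ALX-5407 libraries, led by Ifng in control and by Il12rb2 (475 and 473 CPM, not called) with ALX-5407. Of the 7, 4 (57.1%) were called lower (Stat4, Il18r1, Ifng and Il18rap) and 1 (14.3%) higher (Tbx21), set against the same shares over all genes. The 8 markers of CD8 T and NK cells summed to 151, 173 and 145 CPM and to 118, 116 and 111 CPM, most of it from Nkg7 (133 and 91.5 CPM). Of the 5 tested, Nkg7 and Cd8a (3.91 and 2.24 CPM) were called lower, Eomes (2.50 and 5.17 CPM) was called higher, and Cd8b1 and Klrd1 were not called. The other 3 markers, among them Ncr1, were under 1 CPM in every library.

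Markers of cells other than T cells were mostly scarce. The 8 B cell markers summed to 28.1, 27.3 and 24.4 CPM in control and 21.8, 19.1 and 18.5 CPM in ALX-5407 libraries, with Ebf1 the most abundant (17.6 and 5.71 CPM). Ebf1 was the 1 B cell marker called lower, and the other 7 had log2 fold changes above 0, of which Pax5 (2.15 and 4.02 CPM), Ms4a1 (0.654 and 1.59 CPM) and Cd79a (1.52 and 2.42 CPM) were called higher (12.5% lower and 37.5% higher, against 23.2% and 24.5% over all genes). The median log2 fold change over the 8 was 0.71. The 13 myeloid markers summed to 76.0, 80.5 and 75.6 CPM and to 35.3, 28.4 and 29.2 CPM, led by Ly6g (72.2 and 27.0 CPM), the 1 called lower of the 3 tested. Of these, S100a8, S100a9 and Siglech were at 0 in every library, and 11 of the 13 were under 1 CPM. The 9 erythroid and platelet markers summed to 4.18, 4.91 and 5.91 CPM and to 9.71, 11.1 and 8.19 CPM, led by Itga2b, which was called higher, as was Pf4, of the 4 tested. The part of these shifts in the results for the 10 factors was not tested.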

How the data were processed

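The authors deposited raw counts of reads per gene, without normalization, for each of the 6 libraries. The submitters' processing notes name fastp, HISAT2 2.0.5, featureCounts 1.5.0-p3 and mm10; the use of strand and of reads with several matches is not given in the sources used here. Paralogs of a family could share such reads.

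From the counts, fold changes were fitted in edgeR 4.0.16 (R 4.3.3) after filterByExpr (minimum count 10, minimum total 15), TMM factors and the quasi-likelihood F test, group only, with Benjamini-Hochberg adjustment over 15938 genes. CPM used library sizes times TMM factors (0.965 to 1.03), and RPKM also used the deposited gene length. DESeq2 1.42.0 and limma-voom (limma 3.58.1), other scalings and filters, a replicate block and leaving out each library were alternatives. The fit was tested on simulated data. The 10 factors and all gene lists, compiled from general knowledge, were chosen with earlier results of these data known. The genes named were all 10 factors, up to 4 called genes in each direction by smallest p-value in each list, genes needed to name a count of 5 or fewer, and the 3 nearest profiles; a few of these and of the cell markers are not reported here. Other genes, among them Nfatc4, Ppp3cb, Ppp3cc, Itpr3, the single cell markers and the neighbours, were chosen after values were seen. Replicates were compared in case files repeated the same library, and none were merged (chi-square per degree of freedom 5.35 to 20.2 within groups). Motifs were counted in RefSeq promoters of GRCm38.p6, and figures were drawn with matplotlib 3.10.9.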

Additional observations from a re-analysis of the deposited data

How the results depend on the processing

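Under 14 alternatives, 8 of the 10 factors kept their direction and their side of the threshold in every one. The log2 fold change of Nr4a2 ran from -1.96 to -1.76, that of Nr4a3 from -0.42 to -0.29, that of Egr1 from 1.10 to 1.29, that of Egr2 from 0.54 to 0.85, that of Nfatc1 from 0.88 to 1.02, that of Nfatc2 from 0.53 to 0.70, that of Irf4 from 0.41 to 0.54 and that of Myc from 0.49 to 0.63. The value of Nr4a1, close to 0 throughout, changed sign with RLE factors (-0.00024), upper-quartile factors (-0.039), a filter at a mean of 50 counts (-0.015) and DESeq2 (-0.00023), and ran from -0.095 to 0.056 with 1 library left out. Egr3 had 0.28 with upper-quartile factors and from 0.22 to 0.45 with 1 library left out, where 4 of the 6 omissions ended the call. Without control 3 the value fell to 0.22 with an SE of 0.111, under the 0.119 of the main fit, while in the other 3 of these the SE rose (0.139 to 0.140). What ended the call was not tested, for the omissions or for the scaling.

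Requiring a log2 fold change beyond 1 left 536 genes higher and 1064 lower, and 1 factor in each direction. Of 252 counts over the related lists, 16 moved by over 1.5 times. The median log2 fold change of all genes stayed between -0.05 and 0.06 under the alternatives. Same-numbered libraries did not deviate together (correlations across genes of -0.0097, -0.0017 and 0.056), and not every library correlated best with its own number. With the replicate block, 4071 genes were higher and 3833 lower, and the counts for the factors stayed at 7 and 2. Il2 (1.34 CPM in control and 2.88 CPM in ALX-5407 libraries) and Egr4 (0.28 and 0.231 CPM) were scarce. The part of sequencing depth in their values was not tested.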
